A study of Mus musculus with 2 samples.

Results

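The genes described here encode the subunits of the oxidative phosphorylation system. They were taken from the platform's probe annotation by symbol: those beginning with Nduf, Sdha to Sdhd, Uqcr, Cox4 to Cox8, Atp5 or Cycs. The rule found 80 genes, carried by 81 probes, of 16446 named genes on the array, and 78 of them (79 probes) exceeded the blank spots by 2 SD in all 4 channels, which is called above background or measured below. The 2 left out were Uqcrq, a subunit of complex III, above background in 1 of 4 channels, and Cox8c, a testis isoform of complex IV, above background in none. By known function, the 78 measured genes comprised 33 subunits of complex I, 4 of complex II, 6 of complex III, 15 of complex IV (with Ndufa4, which was first named as a complex I subunit), 15 of complex V and the electron carrier gene Cycs. The other 4 are no subunits: the complex I assembly factor gene Ndufaf1, the supercomplex factor gene Cox7a2l, Atp5s (now Dmac2l), and Cox4nb (now Emc8), which lies next to Cox4i1 in the genome and whose product is a membrane protein complex subunit of the endoplasmic reticulum.

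Hippocampal RNA came from wild-type mice, from AtrxdE2 mice, whose gene for the chromatin remodeller Atrx has the ΔE2 allele, and from AtrxdE2 mice that received TMPyP4, a cationic porphyrin known to bind G-quadruplexes. TMPyP4 was injected into the peritoneum at 30 mg/kg, 2 times a week, from postnatal day 30 to day 90. Age at sampling, strain, sex and a vehicle for the other mice were not stated in the sources used here. Each RNA was 1 pool of 5 mice, and whether both arrays shared 1 wild-type pool was not stated. One two-colour array set AtrxdE2 (Cy3) against wild type (Cy5) and the other set AtrxdE2+TMPyP4 (Cy3) against wild type (Cy5), without a dye swap, so dye and genotype cannot be told apart. Log2 ratios are of the mutant pool over wild type after loess normalization, which sets the trend of all spots of like brightness to 0. With 1 array per comparison there is no replicate error and no test. A value is therefore given beside the share of all measured named genes past the same fold. It is also given beside the difference between the wild-type channels of both arrays, the only group measured on both. That difference includes spot and array effects, which a ratio within an array can cancel. It is thus not the error of a ratio. In pools of whole tissue, fewer cells of a type and less RNA per cell cannot be told apart.

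Oxidative phosphorylation moves electrons from NADH through complex I, or from succinate through complex II, to ubiquinone, on to cytochrome c through complex III, and to oxygen through complex IV, while protons are pumped across the inner mitochondrial membrane. Complex V, the ATP synthase, uses that gradient to make ATP, on which synaptic transmission in the brain depends heavily. All complexes except complex II also hold subunits encoded by mitochondrial DNA, which the rule does not cover. Nuclear-encoded subunits are often expressed together, and the transcription factors NRF1 and GABP (also called NRF2, of the ETS family) are known to bind many of their promoters.

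Promoters of 66 of the 80 genes (71 promoters, from 250 bases before to 50 bases after a start, RefSeq, GRCm38.p6) could be searched for sequence patterns on both strands. The palindromic NRF1 core, shown in capitals below, was found in 5 of the 71 promoters (7.04%), against 0.971% of all 32851 promoters of the table. The ETS core CCGGAAGT was also in 5 (7.04%, against 3.89%), and CCAAT in 29 (40.8%, against 37.4%). Because TMPyP4 binds G-quadruplexes, the pattern that can form them was searched as well, as 4 runs of at least 3 G with 1 to 7 bases between runs, and 15 promoters held it (21.1%, against 18.6%). No matches of different patterns overlapped. A match is a match of letters and no evidence of binding.

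The 4 NRF1 cores that lie before a start are printed in capitals within 60 bases of the gene's own strand, 5′ to 3′, to show where a shared regulator could bind. They lie at chr15:102671055-102671114 (minus strand, Atp5g2), chr5:108434415-108434474 (minus strand, Atp5k), chr5:115349086-115349145 (minus strand, Cox6a1) and chr17:56717677-56717736 (plus strand, Ndufa11).
Atp5g2: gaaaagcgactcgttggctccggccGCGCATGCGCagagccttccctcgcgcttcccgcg
Atp5k: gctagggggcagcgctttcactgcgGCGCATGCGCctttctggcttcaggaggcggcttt
Cox6a1: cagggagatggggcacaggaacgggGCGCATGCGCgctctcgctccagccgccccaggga
Ndufa11: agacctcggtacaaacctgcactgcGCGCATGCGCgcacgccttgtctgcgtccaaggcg

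The G-quadruplex pattern lies upstream of genes with low values too, such as Cox6a1, among the lowest members on both arrays (-0.45 and -0.33). Windows of the same length show it upstream of 4 genes chosen for a high value in at least 1 comparison below, though Sdhb was at -0.34 in AtrxdE2. In each the G runs are on the opposite strand and so appear as C runs, in capitals: chr13:30545412-30545471 (minus strand, Uqcrfs1), chr4:140961134-140961193 (plus strand, Sdhb), chr2:90904901-90904960 (minus strand, Ndufs3) and chr16:37654452-37654511 (minus strand, Ndufb4).
Uqcrfs1: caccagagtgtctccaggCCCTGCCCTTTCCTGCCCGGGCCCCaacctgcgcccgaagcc
Sdhb: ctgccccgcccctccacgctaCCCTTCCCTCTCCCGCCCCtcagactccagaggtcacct
Ndufs3: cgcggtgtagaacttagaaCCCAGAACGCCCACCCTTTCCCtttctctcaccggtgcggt
Ndufb4: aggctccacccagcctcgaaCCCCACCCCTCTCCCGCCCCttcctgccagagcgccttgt

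The mitochondrial genes were among the brightest of the arrays. The median member stood at percentile 97.6 of all measured named genes by signal, and 72 of 78 were above the median signal of all measured probes. This matters for the values, because normalization acts on signal: at a mean log2 intensity of 13 or more, where 82 named genes lie, the median log2 ratio of all genes was -0.16 in AtrxdE2 and -0.14 in AtrxdE2+TMPyP4, against 0.0 and 0.02 between 8 and 10. Of the 9 members in that range, 6 belong to complex IV (Cox4i1, Cox6a1, Cox6b1, Cox6c, Cox7a2 and Cox8a) and 3 to complex V (Atp5b, Atp5f1 and Atp5g3).

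**Figure D1:**
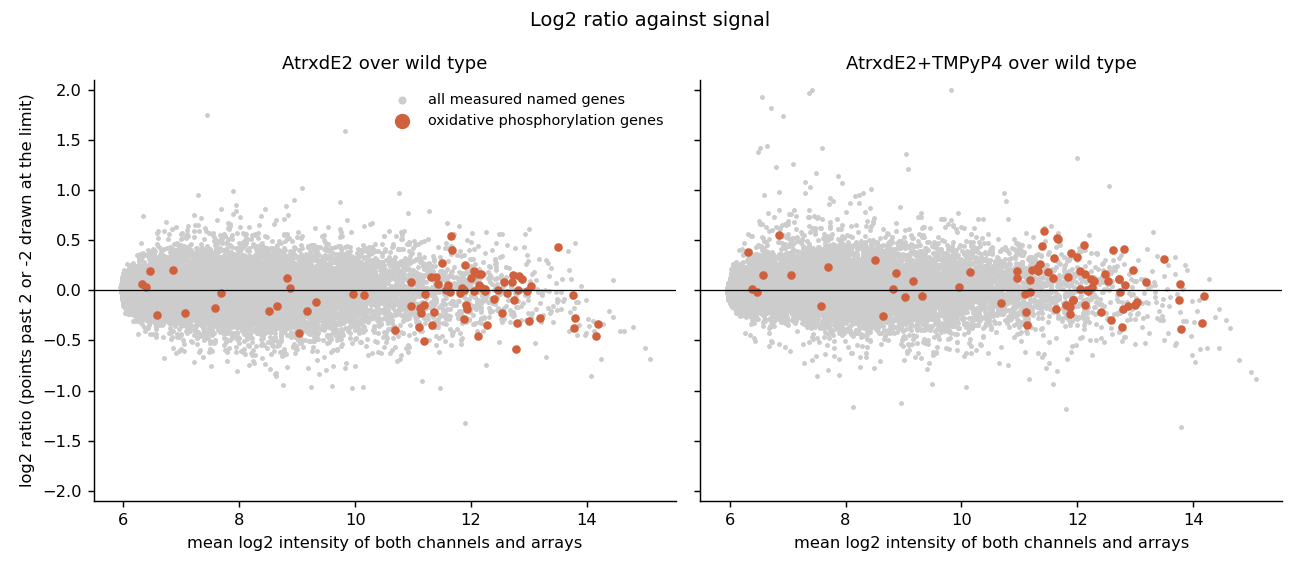
Log2 ratio over wild type (vertical axis) against the mean log2 intensity of both channels and arrays (horizontal axis) for 13633 measured named genes (grey) and the 78 oxidative phosphorylation genes (orange), 1 array per panel. The members crowd at the bright end, and above an intensity of 13 the grey cloud itself lies mostly below 0.

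In AtrxdE2 against wild type, the respiratory chain genes showed small differences in both directions. Their median log2 ratio was -0.03 (SD 0.22 over genes, n = 78), with 34 genes above 0 and 44 below, against a median of 0.0 (SD 0.19) and 49.3% above 0 over all 13633 measured named genes (49.9% of those above the median signal). At least 1.2-fold (0.26 on the log2 scale) lower were 16 members, among them genes of all 5 complexes, against 8.08% of all named genes and 12.5% of those above the median signal. At least 1.2-fold higher were 4, against 7.27% and 10.7%. No member reached 2-fold, which 0.0293% of named genes did and 0.0553% of those above the median signal. With median centring in place of loess, which moved the median of all genes above the median signal to 0.21, the split was 21 higher and 3 lower, and with the local background it was 9 and 20. The median of all genes above the median signal was -0.01 with the local background. Shares of all genes past 1.2-fold were not computed under these alternatives.

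The lowest member was Ndufa4, a small subunit now placed with cytochrome c oxidase, with a log2 ratio of -0.59. Its signals above the blank spots were 6690 in wild type and 6606 in AtrxdE2 on the first array, where most genes were brighter in the Cy3 channel. Sdhd, a membrane anchor of succinate dehydrogenase, had -0.51, from 1824 in wild type and 1964 in AtrxdE2. In both genes the 2 channels were nearly equally bright, while the median signal of all probes was 42.2 in wild type and 64.6 in AtrxdE2. Uqcrh, the hinge protein of complex III that helps cytochrome c dock, had -0.46, and Cox6a1, the widely expressed form of a complex IV subunit, -0.45. Uqcrh differed by -0.53 between the wild-type channels, being dimmer on the second array, whereas Sdhd differed by 0.21, Cox6a1 by 0.19 and Ndufa4 by -0.06. The ratio of Uqcrh is thus no larger than the difference between wild-type measurements.

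The highest member was Ndufb4, an accessory subunit in the membrane arm of complex I, with 0.55 (1.46-fold), from 2180 in wild type and 4878 in AtrxdE2. Cox6c, a small complex IV subunit, had 0.43, with signals of 8612 and 17063. Cycs, the somatic cytochrome c that carries electrons between complexes III and IV and triggers apoptosis when released, had 0.40, with signals of 2077 and 4214. Ndufb7, another membrane-arm subunit, had 0.28. Between the wild-type channels these 4 genes differed by -0.15, -0.23, 0.09 and 0.27, so the ratio exceeded the wild-type difference for Ndufb4, Cox6c and Cycs and nearly equalled it for Ndufb7. The authors' deposited value table gives 0.51, 0.33, 0.37 and 0.25 for them. With the local background in place of the blank spots, Cycs had 0.01 and Ndufb4 0.22.

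**Figure D2:**
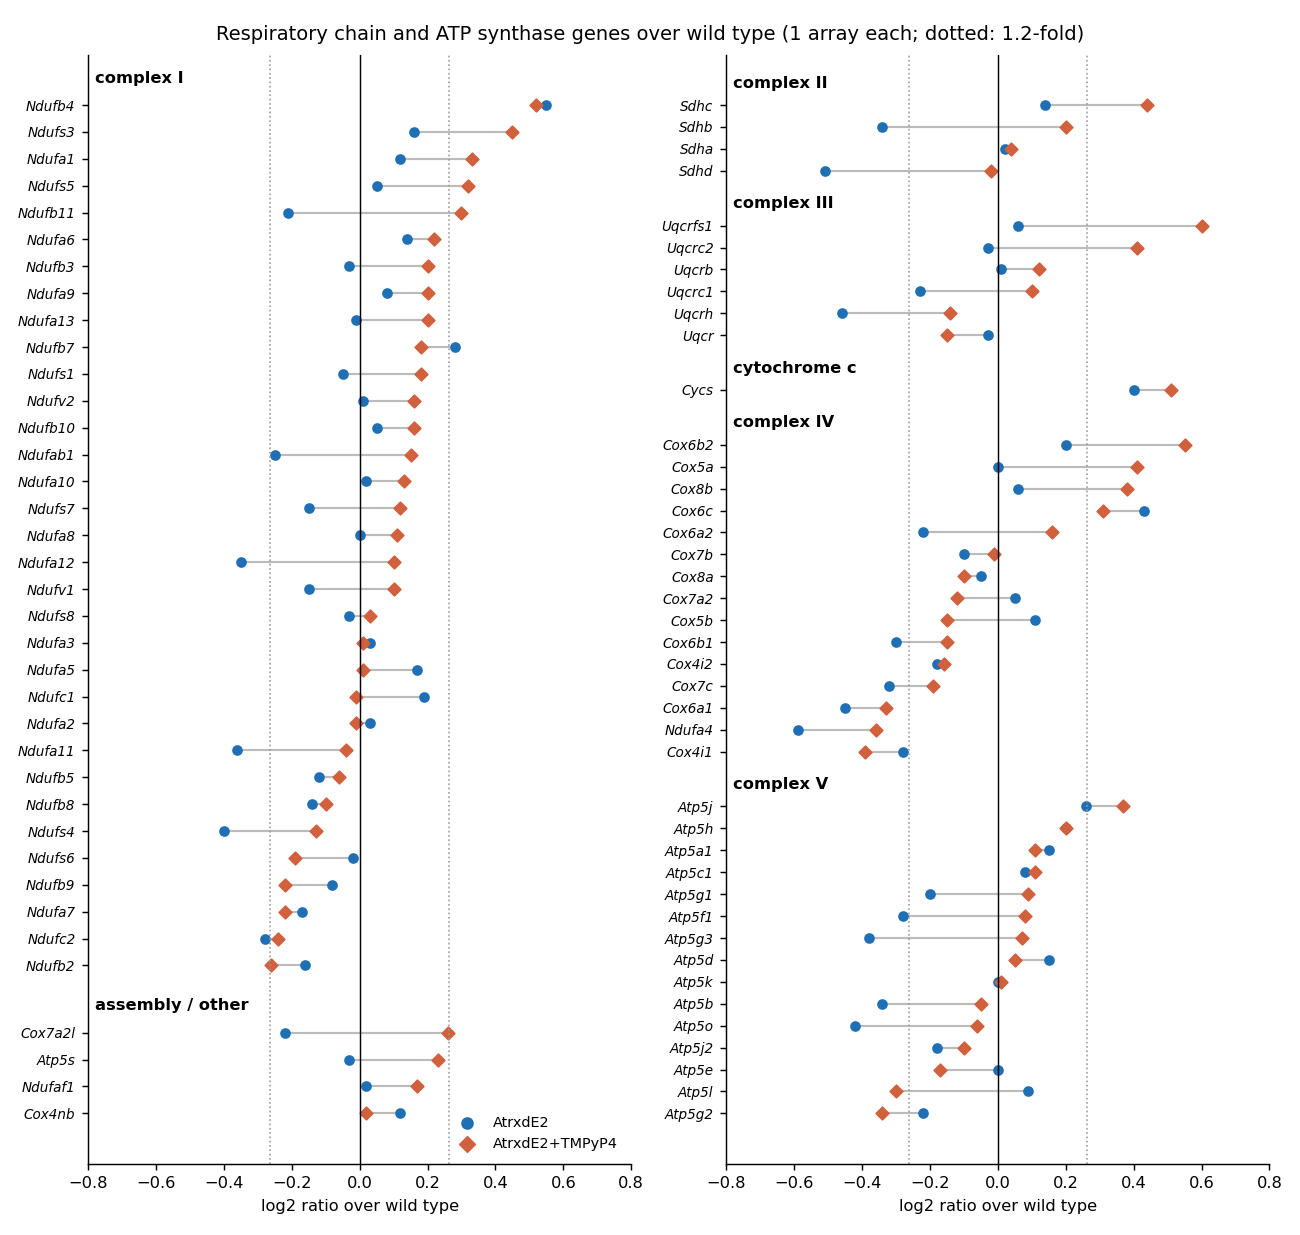
Log2 ratio over wild type (horizontal axis) of each of the 78 measured genes, grouped by complex, for AtrxdE2 (blue circles) and AtrxdE2+TMPyP4 (orange diamonds), with 1 array each and dotted lines at 1.2-fold. Ndufb4, Cox6c and Cycs lie right of the dotted line on both arrays, Ndufa4, Cox6a1 and Cox4i1 left of it on both, and the genes of complexes II and III have some of the longest grey lines, which join both arrays.

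By complex, the medians in AtrxdE2 were -0.02 for complex I (33 genes, 14 above 0), -0.16 for complex II (4 genes, 2 above 0), -0.03 for complex III (6 genes, 2 above 0), -0.10 for complex IV (15 genes, 6 above 0) and 0.0 for complex V (15 genes, 7 above 0). The spread within a complex was larger than the gaps between them, with an SD over genes between 0.20 and 0.30. Differences between complexes were not tested, and with median centring the medians of complexes I to III were above 0 (0.22, 0.08 and 0.21) and that of complex IV was 0.0. The median of all genes above the median signal was then 0.21. In complex I, 6 genes of the catalytic core, which binds NADH and passes electrons to ubiquinone, lay close to 0, from -0.15 for Ndufv1 and Ndufs7 to 0.16 for Ndufs3, with Ndufs1 at -0.05, Ndufs8 at -0.03 and Ndufv2 at 0.01; with median centring all 6 lay above 0, between 0.11 and 0.39. The 27 accessory subunits ranged more widely, from -0.40 for Ndufs4 to 0.55 for Ndufb4. Ndufs4 is the subunit whose loss in mice gives a model of Leigh syndrome, and it is named here after its value was seen.

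Complex II was uneven: its catalytic flavoprotein gene Sdha was at 0.02 and the anchor gene Sdhc at 0.14, while the iron-sulfur subunit gene Sdhb was at -0.34 and Sdhd at -0.51. In complex III the Rieske protein gene Uqcrfs1 was at 0.06, and the core protein genes Uqcrc1 and Uqcrc2 were at -0.23 and -0.03. In complex V the catalytic head genes parted, Atp5a1 (alpha) with 0.15 and Atp5b (beta) with -0.34, although their products are joined in equal numbers. Atp5b is among the brightest genes described above.

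Families in which several genes encode the same subunit showed no common pattern. The Atp5g genes encode the same mature c subunit of the proton-driven ring with different import sequences, and all 3 were below 0 in AtrxdE2, at -0.20 for Atp5g1, -0.22 for Atp5g2 and -0.38 for Atp5g3. This direction turned with median centring for Atp5g1 and Atp5g2, which then had 0.04 and 0.03. Both lay below the median of all genes above the median signal, which was then 0.21. Of the Cox4 pair, Cox4i1 (the main form) had -0.28 and Cox4i2 (a form known from lung and from low oxygen) -0.18. Cox6a2, the muscle form, had -0.22 against -0.45 for Cox6a1, and Cox6b2, a testis form, 0.20 against -0.30 for the widely expressed Cox6b1. Cox8a had -0.05 and the muscle form Cox8b 0.06, and Cox7a2 had 0.05. The forms of other tissues were dim, with signals at or below 138 in the first array's channels, where ratios are compressed. For Cox6a2 and Cox6b2 the authors' deposited table gives -0.45 and 0.41.

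**Figure D3:**
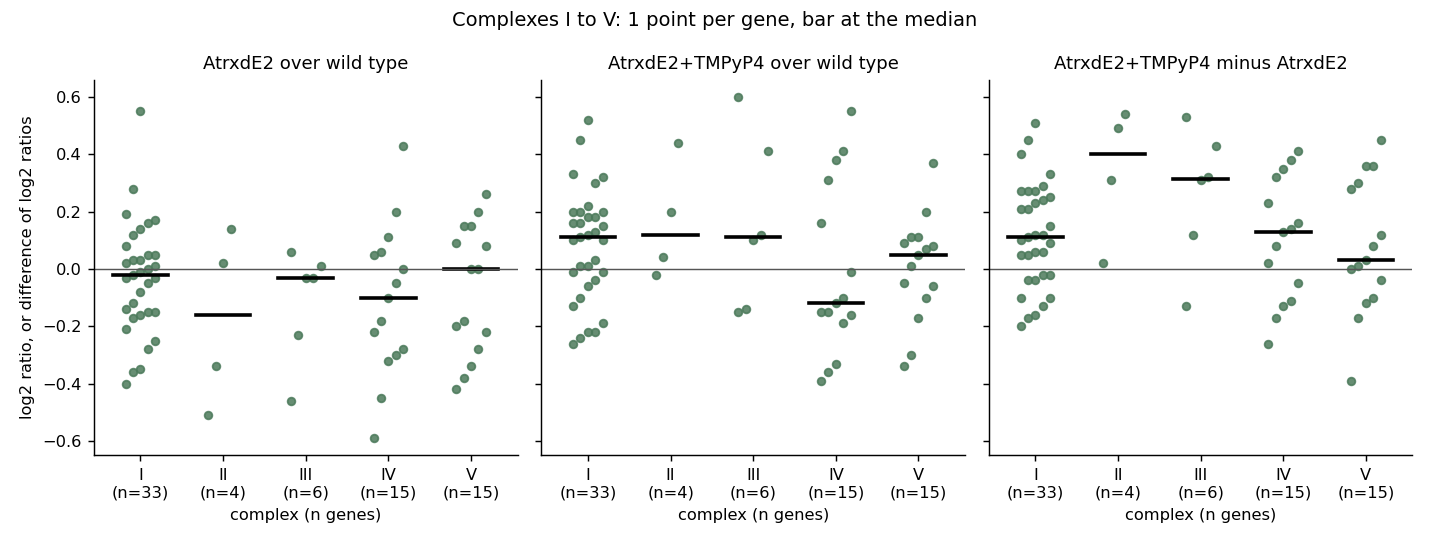
Log2 ratios of the genes of complexes I to V (1 point per gene, bar at the median) for each mutant pool over wild type, and the difference of both ratios (right). Points of every complex overlap in the left and middle panels, and the medians of complexes II and III are the highest in the right panel, at 0.40 and 0.32.

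In AtrxdE2+TMPyP4 against wild type, more respiratory chain genes were higher than lower. The median was 0.09 (SD 0.23, n = 78), with 48 genes above 0 and 30 below, against 0.01 (SD 0.20) and 52.8% above 0 over all named genes. At least 1.2-fold higher were 14 members, against 8.74% of all named genes and 12.8% of those above the median signal, and at least 1.2-fold lower were 5, against 5.15% and 8.67%. No member reached 2-fold, which 0.191% of named genes did and 0.235% of those above the median signal. With median centring, which moved the median of all genes above the median signal to 0.43, the split was 71 higher and 0 lower, and the members' median was 0.63. With the local background the split was 27 and 6, and the median of all genes above the median signal was 0.07. Shares of all genes past 1.2-fold were not computed under these alternatives.

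Uqcrfs1, the Rieske iron-sulfur protein that hands electrons on within complex III, was highest with 0.60 (1.51-fold). Its signals were 1649 in wild type and 5877 in AtrxdE2+TMPyP4 on the second array, and 1843 in wild type and 2963 in AtrxdE2 on the first. The wild-type channels thus nearly matched for this gene (difference 0.06), and its ratio in AtrxdE2 was 0.06 with this processing. Among the alternatives that AtrxdE2 ratio went up to 0.45, and with the local background the difference between the pools was 0.15. Cox6b2 had 0.55 from dim signals of 32.2 and 141, with 0.96 in the authors' deposited table. Ndufb4 and Cycs were again high, with 0.52 and 0.51. Ndufs3, a core subunit of complex I, had 0.45 and Sdhc 0.44, and Uqcrc2 had 0.41. Wild type was dimmer on this array than on the other for Uqcrc2 (difference -0.37) and Ndufs3 (-0.39), nearly by the size of their ratios. With the local background, Cycs had 1.61, Sdhc 1.09 and Ndufs3 0.76, while Uqcrfs1 stayed at 0.60 and Ndufb4 at 0.50.

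The lowest genes were Cox4i1 with -0.39, Ndufa4 with -0.36, Atp5g2 with -0.34 and Cox6a1 with -0.33. For all 4 the sign turned with median centring, to 0.27, 0.27, 0.25 and 0.34, and for Cox4i1 and Ndufa4 also with the local background, to 0.72 and 0.02. Their signs thus depend on the normalization. With median centring the median of all genes above the median signal was 0.43, and all 4 genes lay below it. At an intensity of 13 or more, where Cox4i1 and Cox6a1 lie, the median of all genes was itself -0.14. Between the wild-type channels the 4 lowest genes differed by 0.40, -0.06, -0.06 and 0.19. Only for Cox4i1 was that difference as large as the ratio.

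Complex IV was the only complex whose median lay below 0 in the treated pool, at -0.12 (15 genes, 5 above 0). It lay above 0 with median centring (0.48, against 0.43 for all genes above the median signal) and with the local background (0.11, against 0.07). The other medians were 0.11 for complex I (22 of 33 above 0), 0.12 for complex II (3 of 4), 0.11 for complex III (4 of 6) and 0.05 for complex V (9 of 15), of which those of complexes III and V lay below 0 with the local background (-0.07 and -0.01). Complex IV holds the brightest genes (median log2 intensity 12.8, against 11.4 to 12.1 in the other complexes), and without the genes at 13 or more its median was -0.01 over 9 genes. Of these 9, however, 4 were dim, with an intensity below 8 (Cox4i2, Cox6a2, Cox6b2 and Cox8b). Over the 12 complex IV genes above the median signal the median was -0.15. Within complex IV, Cox5a with 0.41 and Cox6c with 0.31 stood opposite Cox4i1, Cox6a1 and Ndufa4. Cox5a, a subunit on the matrix side that is named after its value was seen, was dimmer in wild type on the second array (difference -0.42), and had 3.09 with the local background.

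The catalytic core of complex I lay above 0 in all 6 genes in the treated pool, from 0.03 for Ndufs8 to 0.45 for Ndufs3, with Ndufv1 at 0.10, Ndufs7 at 0.12, Ndufv2 at 0.16 and Ndufs1 at 0.18. Of these, 1 passed 1.2-fold. Their size varied with the processing, up to 3.67 for Ndufs7, 1.91 for Ndufs1 and 1.42 for Ndufs8 among the alternatives. Among the accessory subunits 16 of 27 were above 0 (median 0.10). In complex II, Sdhb was at 0.20, Sdha at 0.04 and Sdhd at -0.02. In complex V the head genes Atp5a1 and Atp5b were at 0.11 and -0.05. The c subunit genes now parted, with Atp5g1 at 0.09, Atp5g3 at 0.07 and Atp5g2 at -0.34. Of the forms of other tissues, Cox8b had 0.38 (1.25 in the authors' deposited table) from signals of 10.8 in wild type and 57.9 in the treated pool, against -0.10 for Cox8a, and Cox6a2 had 0.16. Cox4i2 had -0.16, Cox7a2 -0.12 and Cox6b1 -0.15. Of 9 muscle marker genes, 4 were above background, with a median of 0.20, and their part in the values of Cox8b and Cox6a2 was not tested.

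Ndufs5 is the single member with more than 1 probe, and its probes disagreed in the treated pool, at 0.55 and 0.10. In AtrxdE2 they had 0.09 and 0.01. Values of other members rest on a single probe each, and whether a probe also takes up RNA from processed pseudogenes, which are common for such genes, was not analysed here.

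Between the mutant pools, 25 members were at least 1.2-fold higher in AtrxdE2+TMPyP4 than in AtrxdE2 when their ratios to wild type were subtracted, against 14.2% of all named genes and 19.3% of those above the median signal. At least 1.2-fold lower were 2, Atp5l and Cox5b, against 9.66% and 14.3%. None reached 2-fold, against 0.315% and 0.511%. The median difference was 0.12 (SD 0.21, n = 78), with 56 above 0 and 22 below, against 0.02 and 52.7% above 0 over all named genes. Compared directly, after quantile normalization of the Cy3 channels, the median was 0.17, with 25 members higher and 6 lower by 1.2-fold, against 21.6% of all named genes higher and 20.0% lower, and 27.2% and 25.8% of those above the median signal. The size of the median difference depended on the processing: it was 0.24 with the local background (38 members higher and 9 lower by 1.2-fold), 0.45 with median centring (64 and 1) and 0.23 in the authors' deposited table. Over all genes above the median signal it was 0.09, 0.23 and 0.04 in these settings. Shares of all genes past 1.2-fold were not computed for them. Both mutant ratios share the wild-type genotype as reference, so this difference is not independent of the comparisons above.

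The medians of the difference were highest in complexes II and III, but with the local background complex III, at 0.20, was below complexes I (0.37) and IV (0.27). Sdhb had the highest difference of all members, 0.54, with signals of 2231 in wild type and 2684 in AtrxdE2 on the first array and of 1558 in wild type and 4182 in AtrxdE2+TMPyP4 on the second. Wild type itself was dimmer on the second array by 0.28 log2 units (difference -0.28), and the direct difference of the Cy3 channels was 0.22. Sdhd had 0.49, and 0.68 directly, but -0.06 with the local background, and Sdhc 0.31 and 0.16. Sdha stood apart from the other 3 with 0.02 and 0.04. The complex II median was 0.40 through wild type and 0.19 directly.

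In complex III, Uqcrfs1 had a difference of 0.53 and of 0.58 directly, the most even pair among the 4 highest members, and 0.15 with the local background. Uqcrc2 had 0.43 and 0.11, and Uqcrc1 0.32 and 0.35. Uqcrh, low in AtrxdE2, had 0.31 through wild type but -0.18 directly, so its sign depends on the route. The median of complex III was 0.32 by the first route and 0.29 by the other.

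Complex I had a median difference of 0.11 (23 of 33 above 0), complex IV of 0.13 (10 of 15) and complex V of 0.03 (10 of 15). Ndufb11, a membrane-arm subunit, had 0.51 but -0.18 directly, and its wild-type signal was 305 on the first array and 156 on the second. The 6 core genes of complex I were all above 0, from 0.06 for Ndufs8 to 0.29 for Ndufs3. Directly, 5 of 6 were above 0 and Ndufs3 was at -0.06. In complex V, Atp5l, a membrane subunit, had the lowest difference of all members, -0.39, but 0.06 directly. Next lowest were Cox5b with -0.26 and -0.03, Ndufc1 with -0.20 and -0.33 from dim signals, and Atp5e with -0.17 and -0.35. Atp5g3 had 0.45 and 0.0 directly, Atp5g1 0.30 and 0.44, and Atp5g2 -0.12 and -0.20.

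The wild-type channels also differed between the arrays, which is a description and no measure of the error of a ratio. Of 78 members, 29 differed by at least 1.2-fold in either direction between both wild-type channels after quantile normalization, against 25.6% of all named genes and 38.7% of those above the median signal. Their median difference was 0.03 (SD 0.28 over genes), from -0.83 for Ndufa12 to 0.57 for Ndufa7. Of the 25 members higher in the treated than in the untreated pool, 10 were at least 1.2-fold lower in wild type on the second array: Atp5b, Atp5g3, Cox5a, Ndufa11, Ndufa12, Ndufb11, Ndufs3, Sdhb, Uqcrc2 and Uqcrh. In the direct comparison of the Cy3 channels 12 of the 25 were also at least 1.2-fold higher: Atp5f1 (now Atp5pb), Atp5g1, Cox6b2, Cox7a2l, Cox8b, Ndufab1, Ndufs4, Ndufs5, Ndufs7, Sdhd, Uqcrc1 and Uqcrfs1. The wild-type and Cy3 signals of both arrays also enter the difference by which the 25 were chosen. Both overlaps are therefore built in to some extent. The share of all genes meeting both conditions was not computed for either list. These lists were chosen by their values and serve as a description.

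**Figure D4:**
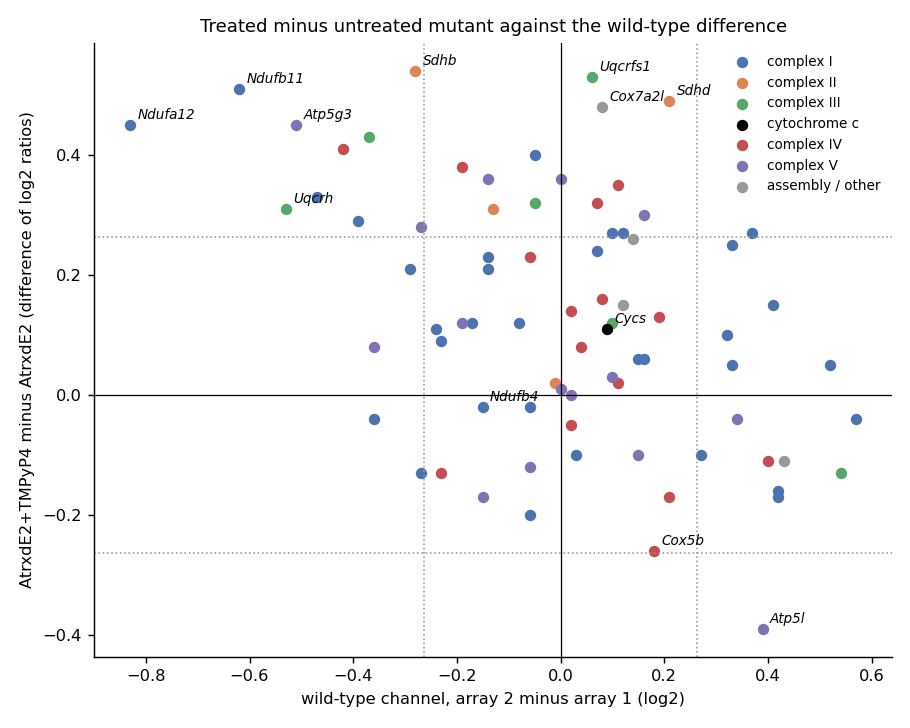
Difference of the log2 ratios of the mutant pools (vertical axis) against the difference of the wild-type channels of both arrays (horizontal axis), 1 point per gene, coloured by complex, with dotted lines at 1.2-fold. Uqcrfs1 and Sdhd lie high with wild-type differences of 0.06 and 0.21, while Ndufa12, Ndufb11 and Atp5g3 lie high where wild type was dimmer on the second array; the wild-type signal enters both axes.

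Members with the G-quadruplex pattern in a promoter (15 measured genes) had a median of 0.20 in the treated pool, and the 51 without it 0.01. The gap was also present with median centring (0.80 and 0.59) and in the authors' deposited value table (0.26 and 0.07). In AtrxdE2 over wild type the medians were -0.01 and -0.03, and for the difference between the pools they were 0.21 and 0.11, a smaller gap. Over all measured named genes with a promoter in the table the pattern went with no such gap, with 0.0 for 3272 genes with it and 0.01 for 7663 without it. With median centring these had 0.21 and 0.17, and in the authors' deposited table -0.01 and 0.0. The median member stood at percentile 97.6 by signal, so members and all genes are unlike in brightness. The gap was not computed with the local background. The 5 genes with an NRF1 core had a median of -0.23 in AtrxdE2, against -0.02 without it, and of -0.04 against 0.09 in the treated pool. The 5 with an ETS core had -0.03 and -0.10, against -0.03 and 0.08 without it. These shares and medians come from few genes and carry no test. The genes of the factors themselves were near 0: Nrf1 had 0.02 and 0.05 and the GABP subunit gene Gabpa -0.12 and -0.09.

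Other genes that serve respiration were read in the same way. Of all named genes, 49.3% were above 0 in AtrxdE2 and 52.8% in the treated pool. Of 18 measured assembly factors, 3 were above 0 in AtrxdE2 (median -0.04) and 12 in the treated pool (median 0.04). None was past 1.2-fold in AtrxdE2, against 7.27% higher and 8.08% lower over all named genes, and 4 were higher by 1.2-fold in the treated pool, against 8.74%, among them Tmem70, needed to assemble complex V, with 0.37, while Higd2a was lowest with -0.15. Of 16 other electron carriers and regulators, 4 were above 0 in AtrxdE2 (median -0.13, from -0.42 for the ubiquinone synthesis gene Coq2 to 0.18 for Coq9) and 13 in the treated pool (median 0.13, from -0.13 for Gpd2 to 0.38 for Coq9). All 16 had a difference above 0 between the pools, against 52.7% of all named genes, up to 0.62 for Etfa, which passes electrons from fatty acid oxidation to the chain. The direct comparison of the Cy3 channels was not computed for these lists. Of 21 genes of mitochondrial import and inner membrane carriers, 4 were above 0 in AtrxdE2 (median -0.05) and 17 in the treated pool (median 0.15). The ADP/ATP carrier genes parted on both arrays, Slc25a4 with -0.45 and -0.30 and Slc25a5 with 0.27 and 0.28. Of 18 genes of mitochondrial DNA expression and biogenesis, 11 and 10 were above 0 (medians 0.04 and 0.05). The nuclear receptor gene Esrra, which activates respiratory chain genes, had 0.26 and 0.50, and the mitochondrial transcription factor gene Tfb2m -0.75 and 0.19.

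Cell type markers were read on the same arrays. All 10 neuronal markers on the array were above background in every channel, with medians of -0.08 in AtrxdE2 and -0.05 in AtrxdE2+TMPyP4. Single markers spread widely in both directions, from -0.67 for Snap25 to 0.43 for Syp in AtrxdE2. In the treated pool they ran from -0.34 for Neurod2 to 0.59 for Snap25. Their difference between the pools had an SD of 0.54 over genes, with 5 above 0 and 5 below. Of 9 oligodendrocyte markers 8 were below 0 in AtrxdE2 (median -0.54) and 7 in the treated pool (median -0.11). The highest of them, Enpp2 with 0.09 and 1.32, is also on the choroid plexus list. Choroid plexus markers, whose epithelium is rich in mitochondria, had medians of 0.02 and 1.43 over 10 measured genes, of which 1 and 8 were at least 2-fold higher. Their summed signal was 2719 in wild type and 4682 in AtrxdE2 on the first array and 2377 in wild type and 74719 in AtrxdE2+TMPyP4 on the second. Ttr made up most of the last value, with 60791, and Cldn2, F5 and Aqp1 were not above background in every channel. All 12 meninges and fibroblast markers were above 0 in both mutant pools (medians 0.39 and 0.69), and striatal markers had -0.32 and -0.52 over 7 genes. Medians of 10 astrocyte markers were 0.0 and 0.11, and of 10 microglia markers -0.04 and -0.12. The part of these tissues in the respiratory chain values was not tested. Atrx itself had -0.68 and -0.36, and the position of its probe relative to the deleted part was not analysed here.

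**Figure D5:**
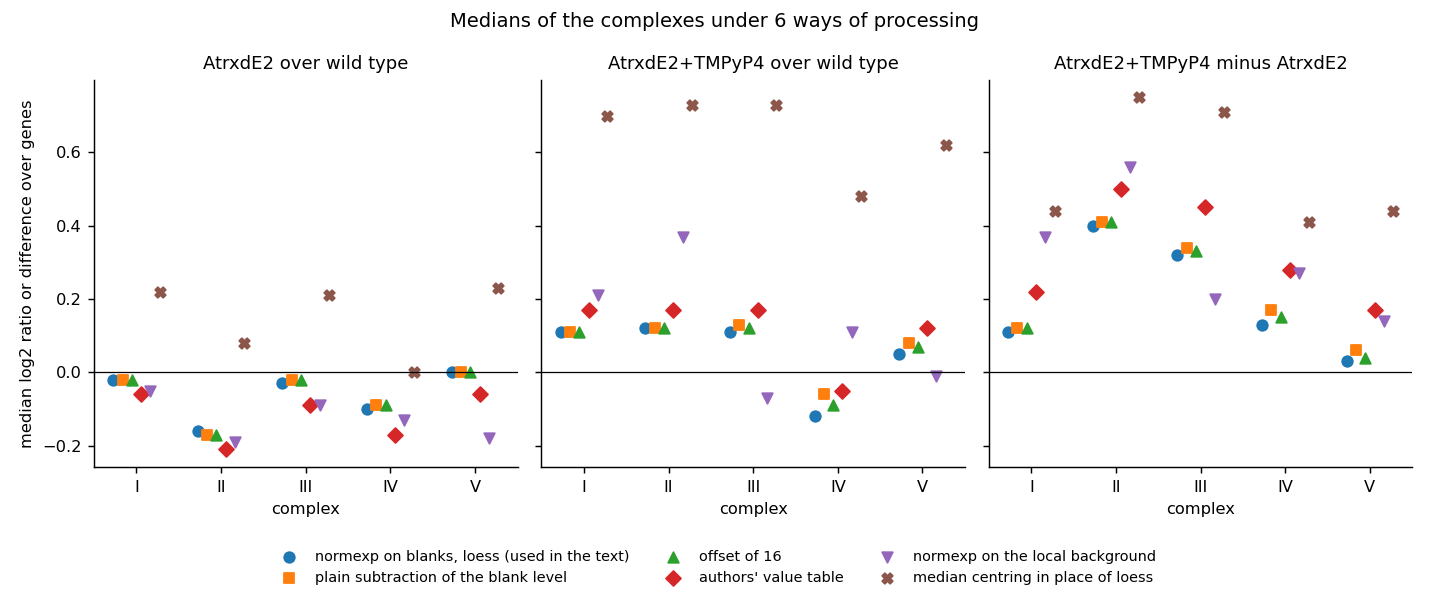
Median log2 ratio, or difference (vertical axis), over the genes of each complex (horizontal axis) under 6 ways of processing the arrays (symbols), 1 panel per comparison. Median centring without loess (brown crosses) lies above the other symbols in every complex, up to 0.75 for the difference in complex II, while plain subtraction and an offset of 16 stay close to the values of the text.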

How the data were processed

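The authors deposited intensity values of each spot and its local background for Cy3 and Cy5, combined over scanner gains per the file headers. Their value table holds log2 ratios that the authors normalized, per the labels; how it was centred is not given in the sources used here. Wild type was Cy5 and the mutant pools Cy3, per the labels, so ratios are Cy3 over Cy5. Each array has 27456 spots, 2736 of them blank, and 23473 probes, of which the platform annotation names 16631. Background was corrected with normexp (limma 3.58.1, R 4.3.3, offset 50) on the trimmed mean of the blank spots (share 0.05 cut at each end), followed by loess within each array with control spots at weight 0. Probes marked bad, or within 2 SD of the blank mean in any of the 4 channels, were left out. This left 18669 probes and 13633 named genes, and probes of a gene were averaged. The offset compresses ratios, most of all those of dim probes. In simulated data, known log2 changes were put into 200 measured probes at a time. A change of 1 came back at a median of 0.71 on the first array and 0.64 on the second, and -1 at -0.52 and -0.6. For probes above the median signal the values were 0.87 and 0.88, and -0.82 and -0.84, so these were compressed too. For the single channels, normexp values were quantile normalized between arrays. Median signals above blank were 42.2 and 36 in the wild-type channels, 64.6 in AtrxdE2 and 79 in AtrxdE2+TMPyP4, and 83.4% to 89.9% of probes were above background per channel. The number of arrays limits the precision.

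Members were chosen by symbol, and they, the gene lists and the named genes were chosen with earlier results of these data known. Named are the 4 highest and 4 lowest members of each comparison, the catalytic core, Cycs, families of several genes and members not above background. Of the other lists only some ends are named, so those names are a selection. Some further names are marked. Of the 80 symbols, 76 are current in the RefSeq table of GRCm38.p6 and 4 matched through a synonym. Alternatives were plain subtraction, normexp on the local background, an offset of 16, median centring, the deposited value table, filters on signal, the brightest probe, subunits only and, for the mutant pools, their Cy3 channels directly; leaving out the brightest genes was added after seeing the data. No test was possible with 1 array per comparison.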

Additional observations from a re-analysis of the deposited data

How the results depend on the processing

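Direction and size were recomputed under each alternative, with a median counted as moved when it shifted by 0.1 log2 units or more and a count when it changed by over 1.5 times. Median centring in place of loess left the array's trend with signal in place and moved nearly every value. The medians over all members became 0.19 in AtrxdE2, 0.63 in AtrxdE2+TMPyP4 and 0.45 for their difference. For complexes I, II, III and V they became 0.22, 0.08, 0.21 and 0.23 in AtrxdE2. For complexes I to V in order they became 0.70, 0.73, 0.73, 0.48 and 0.62 in AtrxdE2+TMPyP4, and 0.44, 0.75, 0.71, 0.41 and 0.44 for the difference. Members higher and lower by 1.2-fold then numbered 21 and 3, 71 and 0, and 64 and 1. All genes above the median signal moved too, to medians of 0.21, 0.43 and 0.23. Shares of all genes past 1.2-fold were not computed under the alternatives.

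The local background gave a median difference of 0.24 over all members. By complex it gave differences of 0.37 (I), 0.56 (II), 0.20 (III), 0.27 (IV) and 0.14 (V). In the treated pool it gave 0.37 for complex II, -0.07 for III and 0.11 for IV, and in AtrxdE2 -0.18 for V. Members past 1.2-fold with it were 9 higher in AtrxdE2, 27 higher in the treated pool, and 38 higher and 9 lower by the difference. Over all genes above the median signal its medians were -0.01, 0.07 and 0.09. The authors' value table gave differences of 0.23 over all members, 0.22 for complex I, 0.45 for III, 0.28 for IV and 0.17 for V, with 1 member lower by 1.2-fold. Plain subtraction gave 7 members higher in AtrxdE2. The direct Cy3 comparison gave 0.19 for complex II and 6 members lower. Without the genes at an intensity of 13 or more, complex IV in the treated pool had -0.01 over 9 genes, 4 of them dim. Over its 12 genes above the median signal it had -0.15.

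Signs of single genes past 1.2-fold turned in these cases. In the treated pool, median centring gave 0.25 for Atp5g2, 0.33 for Atp5l, 0.27 for Cox4i1, 0.34 for Cox6a1 and 0.27 for Ndufa4, and the local background 0.72 for Cox4i1, -0.05 for Ndufa1 and 0.02 for Ndufa4. These median-centred values all lay below 0.43, the median of all genes above the median signal in that setting. For the difference, median centring gave 0.02 for Atp5l and 0.16 for Cox5b, the local background -0.06 for Sdhd, and the direct comparison 0.0 for Atp5g3, 0.06 for Atp5l, -0.15 for Ndufa11, -0.37 for Ndufa12, -0.18 for Ndufb11, -0.06 for Ndufs3 and -0.18 for Uqcrh. The cause was not tested. An offset of 16, the filters on signal, the brightest probe of a gene and the set of subunits alone moved none of these medians and counts. No paired analysis was possible because each comparison rests on 1 array. Dim members, such as Cox8b, Cox6b2, Ndufa3, Ndufab1 and Ndufc1, have compressed ratios.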

Other observations

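Genes of the citrate cycle, which feeds NADH and succinate to the chain, had medians of -0.02 in AtrxdE2 and 0.13 in AtrxdE2+TMPyP4 over wild type over 17 measured genes. Of these, 6 and 11 were above 0, against 49.3% and 52.8% of all named genes. The difference between the pools was above 0 for 12 of them, against 52.7% of all named genes, and 6 were higher by 1.2-fold, against 14.2% (19.3% of genes above the median signal). It went up to 0.58 for Dld, the shared dehydrogenase of pyruvate and oxoglutarate oxidation, and down to -0.25 for Ogdh. The succinyl-CoA ligase gene Sucla2 was highest on both arrays, with 0.55 and 0.71, and the citrate synthase gene Cs lowest in the treated pool with -0.27.

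Glycolysis genes did not share that order. Their medians were 0.03 and -0.10 over 17 genes, with 9 and 4 above 0, and members spread widely between the pools (SD 0.41 over genes), from -0.72 for the neuronal enolase gene Eno2 to 0.78 for Pkm2 (now Pkm). Ldha, which makes lactate, was lowest in AtrxdE2 with -0.75 and stood at -0.07 in the treated pool, while Ldhb had -0.01 and 0.41.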
